A study of Mus musculus with 2 samples.

Results

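The stefins are the 7 genes Stfa2, Stfa2l1, Stfa3, BC100530, BC117090, Gm5483 and Cstb, taken by symbol from the 31053 genes of a droplet single-cell RNA table. They were chosen from the measured levels of these same libraries, so their levels and ratios are given as a description and not as a test. The cells were tumor-associated neutrophils (TANs), sorted as CD11b+Ly6G+ from subcutaneous LLC tumors, a transplanted Lewis lung carcinoma line, in hosts labelled C57BL/6 (C57BL/6 J background in the study's methods) and aged 8-12 weeks. One group was Smad3-WT (Smad3+/+) and the other Smad3-KO (Smad3-/-). For each, 8 tumors were pooled into 1 library per genotype and read with the 10x 5′ kit. The tumor cells were the same transplanted line in both groups, and the deletion was carried by every cell of the host rather than by neutrophils alone. With 1 library per genotype there was no replicate, so no difference between genotypes was tested, and every interval below is an exact 95% interval that covers counting error only.

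Stefins are small inhibitors that sit in the active site of papain-like cysteine proteases such as cathepsins B, L, H and S, and block them without a covalent bond. Unlike the secreted cystatins they carry no signal peptide and act mainly in the cytosol, where they guard the cell against protease that escapes from lysosomes. The mouse carries a tandem array of stefin A genes in place of the single human CSTA, and several copies of that array are known as neutrophil and bone marrow genes. Cstb encodes stefin B, a broadly expressed inhibitor whose loss in humans causes a progressive myoclonus epilepsy.

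Of the 7 genes, 6 belong to the stefin A array on mouse chromosome 16 (GRCm38, GENCODE M21 gene models), and all are annotated as protein coding. Stfa2l1 (ENSMUSG00000059657, chr16:36156811-36161953) and Gm5483 (ENSMUSG00000079597, chr16:36184212-36188111) lie on the plus strand within 31.3 kb. BC117090 (ENSMUSG00000079594, chr16:36321665-36334332), BC100530 (ENSMUSG00000071561, chr16:36359382-36367748), Stfa2 (ENSMUSG00000022902, chr16:36403992-36408457) and Stfa3 (ENSMUSG00000054905, chr16:36450537-36455392) follow on the minus strand within 134 kb. Between the plus-strand and minus-strand members lie 3 further measured genes of the array, Gm5416, 2010005H15Rik and Stfa1, which are also on the plus strand. Csta1 lies before them all, on the minus strand. Cstb (ENSMUSG00000005054) is at chr10:78425669-78427622, plus strand.

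The array genes are near copies of each other, which bears on every count below, since the counting pipeline keeps only reads that map to 1 gene. Over their longest transcripts, Stfa2 and Stfa2l1 were 95.7% identical, BC100530 and BC117090 were 95.3% identical, and BC100530 and the non-member Stfa1 were 97.1% identical over the aligned bases. Of all 90-base words in the GENCODE transcripts of each gene, 97.9% for Stfa2, 97.6% for Stfa2l1, 100% for Stfa3, 88.0% for BC100530, 83.6% for BC117090, 95.9% for Gm5483 and 100% for Cstb occurred in no other gene. Over the start of the longest transcript alone, the end that a 5′ kit reads, the share was 76.8% for BC117090, 92.9% for Gm5483 and 96.2% for Stfa2l1. It was 100% there for the other members. Most 90-base words of each gene's transcripts were therefore found in 1 gene of the annotated transcripts, and BC117090 had the smallest such share by either count. Only exact matches to annotated transcripts were searched, and not the rest of the genome. How reads common to several copies were shared out was not tested.

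Windows before the transcription starts are printed because BC100530 and Stfa1, whose levels parted in opposite directions between the libraries, carry nearly the same one. They show how alike the printed genes are, and not the whole array. Each line gives the 130 bases upstream of the RefSeq start (GRCm38.p6), 5′ to 3′ on the gene's own strand, with the letters TTTAAAA in capitals. RefSeq names Gm5483 as Cstdc4 and BC100530 as Cstdc5, and Stfa1 is shown as the near copy of BC100530. BC117090 and Cstb had no window, and those of Csta1, Gm5416 and 2010005H15Rik are not printed.
Stfa2l1, chr16:36156681-36156810, plus strand: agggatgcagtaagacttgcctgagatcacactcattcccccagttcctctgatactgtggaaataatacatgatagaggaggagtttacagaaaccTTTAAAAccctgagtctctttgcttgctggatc
Gm5483, chr16:36184082-36184211, plus strand: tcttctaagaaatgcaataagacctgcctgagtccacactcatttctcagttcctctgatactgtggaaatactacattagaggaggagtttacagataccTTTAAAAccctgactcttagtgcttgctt
Stfa1, chr16:36277018-36277147, plus strand: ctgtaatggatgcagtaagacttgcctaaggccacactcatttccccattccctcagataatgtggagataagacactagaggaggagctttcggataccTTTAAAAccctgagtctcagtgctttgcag
BC100530, chr16:36367571-36367700, minus strand: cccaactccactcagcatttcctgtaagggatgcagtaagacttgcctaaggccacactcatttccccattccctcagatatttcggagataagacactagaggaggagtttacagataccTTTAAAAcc
Stfa2, chr16:36408364-36408493, minus strand: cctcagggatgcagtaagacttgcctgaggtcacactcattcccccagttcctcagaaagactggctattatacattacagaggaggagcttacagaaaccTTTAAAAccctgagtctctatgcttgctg
Stfa3, chr16:36455393-36455522, minus strand: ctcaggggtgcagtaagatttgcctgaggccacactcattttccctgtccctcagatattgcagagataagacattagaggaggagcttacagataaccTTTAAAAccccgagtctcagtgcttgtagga
Over the 250 bases upstream of the start, BC100530 and Stfa1 were 96.1% identical over the aligned bases, and Stfa2 and Stfa2l1 were 92.3% identical. The letters TTTAAAA, searched on both strands from 250 bases before to 50 after the start, were found in 7 of the 9 measured stefin genes that had a window, against 8.74% of all 32851 windows. Csta1 and 2010005H15Rik lacked them. In 5 of the 9 the word lay on the gene's strand and began 40 to 20 bases before the start, against 0.542% of all windows. The palindrome GTCTAGAC, bound by Smad3, was in 0 of the 9 windows and in 0.213% of all windows, and TTNNGNAA, a C/EBP-type word searched on both strands, was in 6 of the 9 and in 40.7% of all. AGGAAG, an Ets-type word searched on both strands, was in 6 of the 9 and in 35.4% of all. These are matches of letters and say nothing of what binds there.

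The Smad3-WT library held 4116 barcodes and 23951400 unique molecular identifiers (UMIs, 1 per captured RNA molecule), and the Smad3-KO library 2514 barcodes and 4214290 UMIs. After the study's cell filter, 3520 Smad3-WT cells and 2433 Smad3-KO cells remained, and 73 barcode sequences occurred in both libraries. Clusters made without any stefin gene and named from markers gave 1840 neutrophil-like cells in Smad3-WT (52.3%, median 741 UMIs) and 1084 in Smad3-KO (44.6%, median 1015.5 UMIs). All 11 neutrophil markers were detected in both, and their summed level was 90667 CPM (UMIs summed over the cells of a group, per 1000000 UMIs of that group) in Smad3-WT and 100305 CPM in Smad3-KO, against 3422 and 5279 CPM in the other cells. The 13 macrophage or monocyte markers summed to 556 and 530 CPM in the neutrophil-like cells and to 5461 and 1825 CPM in the others. Ly6g, the gene of the sorted antigen, had a UMI in 29 of the Smad3-WT and 106 of the Smad3-KO neutrophil-like cells. The Smad3 deletion takes exon 8 and disrupts exon 7, so UMIs from the 5′ end of Smad3 check no genotype. The remaining cells of the sort were macrophage or monocyte-like, dendritic-like, B cell-like, T or NK-like, and a mixed class with fibroblast and LLC carcinoma markers.

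Array stefins were transcripts of the neutrophil-like cells in both libraries. In Smad3-WT, the 6 array members together reached 3703 CPM (3611 to 3797) in neutrophil-like cells, 195 CPM in macrophage or monocyte-like cells, 132 CPM in dendritic-like cells, 120 CPM in T or NK-like cells and 52.1 CPM in the fibroblast or LLC carcinoma class. In Smad3-KO the neutrophil-like cells again led, with 4390 CPM (4278 to 4504) in neutrophil-like cells, then 452 CPM in dendritic-like, 439 CPM in macrophage or monocyte-like, 359 CPM in B cell-like, 116 CPM in T or NK-like cells and 78.5 CPM in the fibroblast or LLC carcinoma class. The neutrophil-like level stood far outside the counting interval of every other class, whereas the dendritic-like and macrophage or monocyte-like levels of Smad3-KO had overlapping intervals. Neutrophil-like cells held 82.8% of the Smad3-WT UMIs of the 6 members while holding 13.5% of all UMIs of that library. The Smad3-WT B cell-like class had 3 cells and gives no level.

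**Figure D1:**
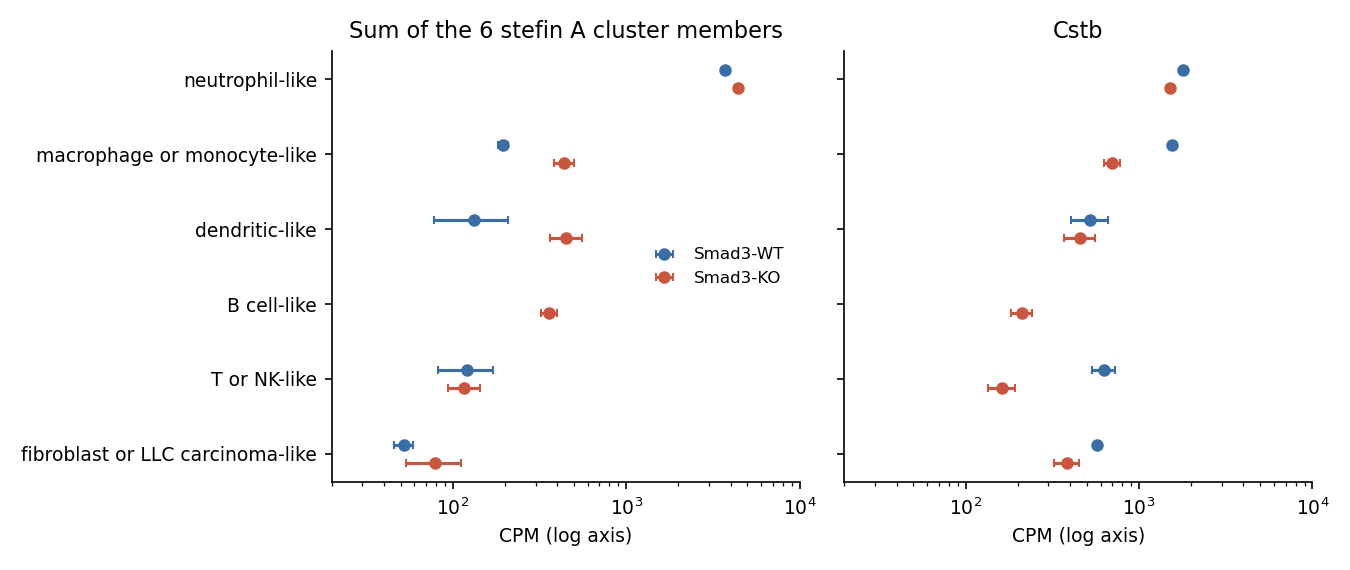
CPM (log axis) of the sum of the 6 stefin A array members (left) and of Cstb (right) in each marker-defined cell class with at least 10 cells of a library, Smad3-WT in blue and Smad3-KO in red, with exact 95% counting intervals. The array sum is highest in neutrophil-like cells of both libraries (3703 and 4390 CPM), while Cstb in Smad3-WT is at 1801 CPM in neutrophil-like and 1548 CPM in macrophage or monocyte-like cells.

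Stefin B was also highest in neutrophil-like cells but less confined to them, most clearly in Smad3-WT. Cstb stood at 1801 CPM in Smad3-WT neutrophil-like cells and at 1548 CPM in Smad3-WT macrophage or monocyte-like cells, with 627 CPM in T or NK-like cells, 573 CPM in the fibroblast or LLC carcinoma class and 521 CPM in dendritic-like cells. In Smad3-KO it stood at 1514 CPM in neutrophil-like, 701 CPM in macrophage or monocyte-like, 457 CPM in dendritic-like, 382 CPM in the fibroblast or LLC carcinoma class, 211 CPM in B cell-like and 162 CPM in T or NK-like cells. It was thus present in every class, and its fall from neutrophils to macrophages was small in Smad3-WT. After every cell was thinned to 500 UMIs, 46.1% of the Smad3-WT neutrophil-like cells and 50.4% of the macrophage or monocyte-like cells still held a Cstb UMI.

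With a call set at a 2-fold CPM ratio among genes with at least 20 UMIs over the groups compared, 3 of the 4 members with enough UMIs in Smad3-WT were higher in neutrophil-like than in all other filtered cells, against 12.5% of all genes. These were Stfa2l1, BC100530 and Gm5483, and the fourth was Cstb. In Smad3-KO 7 of 7 were higher, against 10.7% of all genes.

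The UMIs of array stefins outside the neutrophil-like class had a makeup like that within it, with overlapping intervals for the share of minus-strand members. Minus-strand members made up 1.20% (0.938 to 1.5) of the array UMIs in Smad3-WT neutrophil-like cells and 1.42% (0.843 to 2.23) in the other Smad3-WT cells. In Smad3-KO the shares were 22.1% (21 to 23.2) in neutrophil-like cells and 22.2% (19.3 to 25.3) in the others, including 24.3% in macrophage or monocyte-like and 19.9% in B cell-like cells. B cell-like cells, a class not known for these genes, served as the background for shares of cells in Smad3-KO, and Smad3-WT, with 3 such cells, had none. At 500 UMIs per cell, 6.68% (4.77 to 9.05) of Smad3-KO B cell-like cells held an array stefin UMI (10.7% before thinning), against 3.05% (1.68 to 5.06) of T or NK-like, 16.9% (8.76 to 28.3) of dendritic-like, 18.1% (12.5 to 25) of macrophage or monocyte-like and 56.6% of neutrophil-like cells. The T or NK-like and dendritic-like intervals overlapped that of the B cell-like cells, and the macrophage or monocyte-like share lay above it. Free RNA and doublets were not estimated, and whether cells other than neutrophils express these genes was not tested.

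Between the genotypes, 4 of the 7 genes passed 2-fold on the CPM scale over all neutrophil-like cells and the other 3 did not. The 4 were the minus-strand array members, at 0.606 to 34.0 CPM in Smad3-WT neutrophil-like cells and at 27.9 to 480 CPM in Smad3-KO. Gm5483, Stfa2l1 and Cstb were at 614 CPM or more in both. In neutrophil-like cells 4 of 7 members passed 2-fold upward in Smad3-KO, beside 7.58% of all genes, and 0 of 7 passed it downward, beside 18.4%. The members' median log2 ratio was 3.74, beside -0.34 over all 6135 genes compared, so all genes were shifted somewhat towards Smad3-WT on this scale. In all filtered cells 5 of 7 were higher, against 16.3%, Stfa2l1 being the fifth. Since the genes were picked for such levels, nothing is read from these shares.

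**Figure D2:**
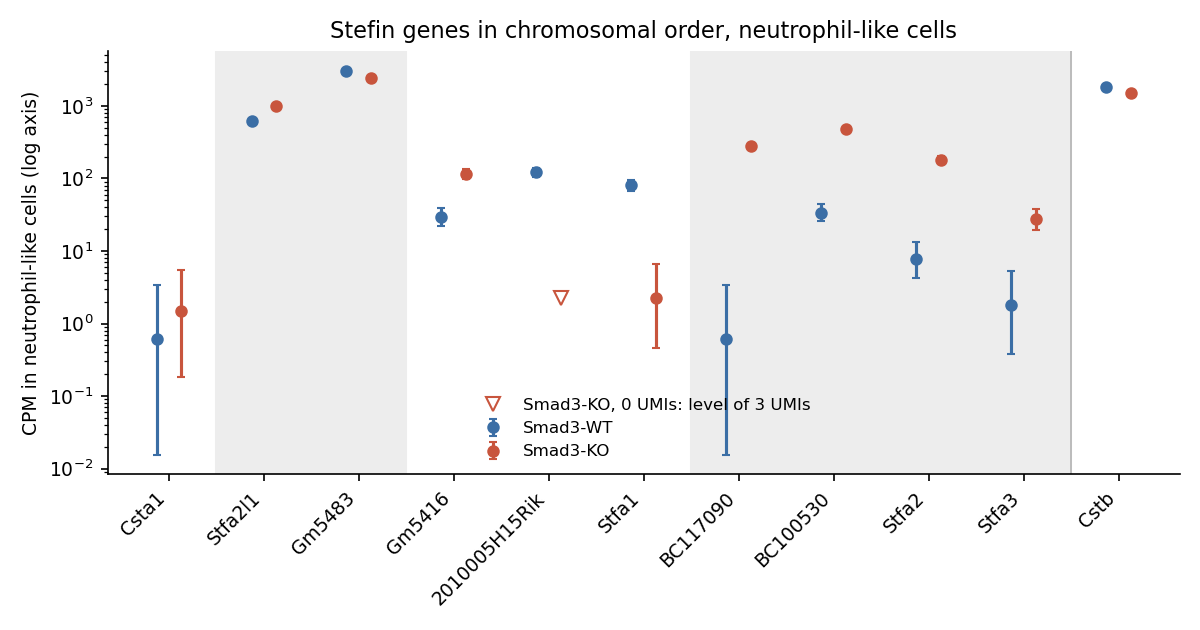
CPM in neutrophil-like cells (log axis) for the measured stefin genes in the order of their positions, with Cstb at the right, Smad3-WT in blue and Smad3-KO in red, with exact 95% counting intervals, and an open triangle at the level of 3 UMIs where a library had 0. Grey bands mark the members on chromosome 16: the plus-strand pair at the left is close between the libraries, while the 4 minus-strand members at the right lie at 0.606 to 34.0 CPM in Smad3-WT and 27.9 to 480 CPM in Smad3-KO.

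BC117090 was the most one-sided. The 1840 Smad3-WT neutrophil-like cells gave 1 UMI (0.606 CPM) and the 1084 of Smad3-KO gave 373 (281 CPM), a ratio of 464 (82.8 to 18378). BC117090 encodes a cystatin domain protein of the stefin A group. It was detected in 1 Smad3-WT cell and in 16.8% of the Smad3-KO cells.

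BC100530, its 95.3% identical neighbour, had the largest UMI count of the minus-strand members. Among neutrophil-like cells, 56 UMIs (34.0 CPM) came from Smad3-WT and 636 (480 CPM) from Smad3-KO, giving a ratio of 14.1 (10.7 to 18.9). It was found in 1.03% of the Smad3-WT and 18.1% of the Smad3-KO cells, and after thinning to 500 UMIs in 0.761% and 11.8%, so the gap in detection remained at equal depth.

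Stfa2, a stefin A copy known from bone marrow and neutrophils, gave 13 UMIs (7.88 CPM) from Smad3-WT and 239 (180 CPM) from Smad3-KO neutrophils, a ratio of 22.9 (13.1 to 43.6). Its share of cells was 0.489% in Smad3-WT and 8.58% in Smad3-KO. Stfa3 was the scarcest member, with 3 UMIs (1.82 CPM) against 37 UMIs (27.9 CPM) and a ratio of 15.3 (4.86 to 77.8). Both therefore lay in the same direction as the other minus-strand genes, at levels that differed from each other by several-fold in Smad3-KO.

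The plus-strand pair behaved otherwise. Gm5483 was the leading stefin of both libraries, with 5020 UMIs (3045 CPM) for Smad3-WT and 3228 (2436 CPM) for Smad3-KO neutrophils, a ratio of 0.80 (0.765 to 0.836). Stfa2l1, the near copy of Stfa2, had 1013 UMIs (614 CPM) and 1305 UMIs (985 CPM), a ratio of 1.60 (1.48 to 1.74). Neither passed the 2-fold mark on the CPM scale over all neutrophil-like cells. Together they gave a ratio of 0.935 (0.899 to 0.972), which became 1.19 when the profiles were scaled by the median of ratios. Median-of-ratios scaling multiplies every ratio by the same factor. That factor takes Stfa2l1 just past the 2-fold mark and leaves Gm5483 well under it, so the place of Stfa2l1 depends on the scale. By subcluster of the finer division below, the Stfa2l1 ratio ran from 0.864 in subcluster 5 to 4.41 in subcluster 2, where Smad3-WT gave 6 UMIs. The Gm5483 ratio ran from 0.375 (0.227 to 0.583) in subcluster 4, on 20 Smad3-KO UMIs, to 1.23 in subcluster 1. In subcluster 5 the Gm5483 ratio was 0.452 (0.348 to 0.584), so it passed 2-fold downward in subclusters 4 and 5. Cstb, with 2970 UMIs (1801 CPM) against 2006 (1514 CPM), had a ratio of 0.840 (0.794 to 0.890), and of 1.07 under that scaling, so no direction is given for it.

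Summed, the 4 minus-strand members stood at 44.3 CPM (73 UMIs) in Smad3-WT neutrophils and 970 CPM (1285 UMIs) in those of Smad3-KO, a ratio of 21.9 (17.3 to 28.1), and every alternative left it between 21.2 and 36.3. This grouping by strand was made after the values were seen. The array as a whole, of which Gm5483 was the largest part, moved less. Over all neutrophil-like cells it stood at 3703 CPM against 4390 CPM, a ratio of 1.19 (1.14 to 1.23). By subcluster of the finer division below, the array ratio ran from 0.508 in subcluster 4 to 1.94 in subcluster 2, where Smad3-WT had 31 cells. Over all filtered cells the same sum gave 606 CPM against 1590 CPM and a ratio of 2.63 (2.54 to 2.71). Neutrophil-like cells held 13.5% of the Smad3-WT and 32.0% of the Smad3-KO UMIs, and the part of this in the larger figure was not tested. The filtered cells other than neutrophil-like had 121 CPM and 275 CPM, a ratio of 2.28 (2.08 to 2.5), and as a mean over all filtered cells the ratio was 1.12.

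The makeup of the array thus differed between the libraries more than its total. Gm5483 made up 82.2% (81.2 to 83.2) of the array members' UMIs in Smad3-WT neutrophil-like cells and 55.5% (54.2 to 56.8) in Smad3-KO. Stfa2l1 made up 16.6% and 22.4%. BC100530 made up 0.917% and 10.9%, BC117090 0.0164% and 6.41%, Stfa2 0.213% and 4.11%, and Stfa3 0.0491% and 0.636%.

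The 3 array genes between the members, which are not members but also lie on the plus strand, parted as well, and not in 1 direction. The contrast by strand therefore holds for the members and not for all measured array genes. Stfa1, the 97.1% identical copy of BC100530, gave 133 UMIs (80.7 CPM) from Smad3-WT but 3 (2.26 CPM) from Smad3-KO neutrophils, a ratio of 0.0281 (0.00571 to 0.0838). 2010005H15Rik, listed by RefSeq as Csta2, gave 201 UMIs (122 CPM) from Smad3-WT but 0 from Smad3-KO, at least 53.9-fold lower against a floor of 3 UMIs over the Smad3-KO cells. Gm5416, RefSeq's Csta3, went the other way with 49 UMIs (29.7 CPM) against 153 UMIs (115 CPM), a ratio of 3.88 (2.80 to 5.47). Csta1 had 1 and 2 UMIs and gives no ratio.

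Because near copies can exchange reads, pairs were also summed. Stfa1 and BC100530 together stood at 115 CPM against 482 CPM in Smad3-KO, a ratio of 4.21 (3.57 to 4.97), smaller than that of BC100530 alone. Stfa2 and Stfa2l1 together stood at 622 CPM and 1165 CPM, a ratio of 1.87 (1.73 to 2.03). All 10 measured array genes together gave 3936 CPM and 4509 CPM, a ratio of 1.15 (1.11 to 1.19). The part of read sharing between copies in these ratios was not tested beyond these sums. All reads were counted against 1 reference genome and the array's own sequence in the Smad3-KO line was not analysed here, so an array that differs in sequence or copies between the lines and a difference in RNA level cannot be told apart for single genes, in either direction.

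The genes flanking the array had ratios nearer to 1 than the minus-strand members. Of the 23 further measured genes within 500 kb of it, 11 had at least 20 UMIs in neutrophil-like cells, and their Smad3-KO over Smad3-WT ratios ran from 0.622 for Ccdc58 to 4.67 for Cd86. Of these 11, 5 were at least 2-fold higher, beside 7.58% of all genes, and 0 at least 2-fold lower, beside 18.4%. Slc15a2, with 14 UMIs against 0 in Smad3-KO, was under the count minimum.

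The neutrophil-like cells of the libraries fell largely into different clusters, so the members were compared within a cluster that both share. Cluster 1 had 1827 cells of Smad3-WT and 221 of Smad3-KO, cluster 3 held 13 and 804, and cluster 8, led by the granule genes Camp, Ngp and Ltf, held 0 and 59. Within cluster 1, the minus-strand sum was 42.7 CPM in Smad3-WT and 1552 CPM in Smad3-KO, a ratio of 36.3 (27.8 to 48.0). There BC117090 gave 0 UMIs from Smad3-WT and 78 from Smad3-KO, at least 246-fold higher against a floor of 3 UMIs over the Smad3-WT cells. The values varied over the subclusters of the finer division below, some of them on few UMIs. The minus-strand ratio was 34.3 (24.7 to 48.5) in subcluster 1 and 6.48 (2.13 to 16.7) in subcluster 3, with 6 UMIs from 13 Smad3-KO cells. It was 3.28 (0.0667 to 33.2) in subcluster 4, on 4 Smad3-WT UMIs and 1 from 21 Smad3-KO cells. In subcluster 5 it was 43.5 (7.41 to 1759), where Smad3-WT gave 1 UMI. In subcluster 2, 31 Smad3-WT cells gave 0 UMIs and 803 Smad3-KO cells gave 927, at least 7.71-fold higher against that floor.

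A finer division of the neutrophil-like cells, again made without stefin genes, gave 6 subclusters. Subcluster 1 (1277 Smad3-WT and 140 Smad3-KO cells) was led by H2-Q10, Fgl2, Cish and Clec4n, and subcluster 2 (31 and 803) by Csf3, Nos2, Il1a and Sod2. Subcluster 3 (272 and 13) was led by Hspa1a, Ciart, Hmox1 and Gm43661, and subcluster 4 (215 and 21) by Ifit3b, Ifit3, Ifi211 and Gm13822, the last group holding interferon-induced genes. Subcluster 5 (45 and 45) was led by Ccr2, H2-Aa, Fn1 and H2-Ab1, genes of monocytes and antigen-presenting cells, and is left unnamed, and subcluster 6 (0 and 62) by Camp, Ngp, Ltf and Chil3, granule genes made early in neutrophil development.

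**Figure D3:**
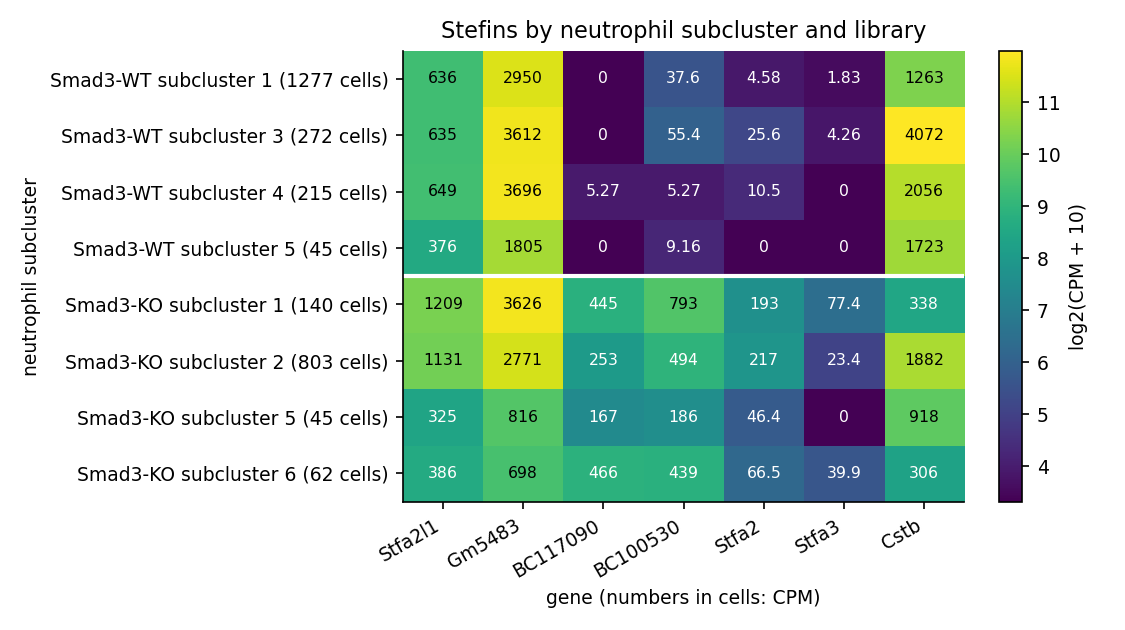
Heat map of the 7 stefins (columns, array members in chromosomal order, then Cstb) in the neutrophil subclusters with at least 40 cells of a library (rows), coloured by log2(CPM + 10) with the CPM printed in each cell. BC117090, BC100530, Stfa2 and Stfa3 are at 0 to 55.4 CPM in every Smad3-WT row. The Smad3-KO rows hold BC117090 at 167 to 466 CPM and BC100530 at 186 to 793 CPM. The same rows hold Stfa2 at 46.4 to 217 CPM and Stfa3 at 0 to 77.4 CPM.

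In subcluster 1, the only one with over 100 cells of each library, Stfa2 stood at 4.58 CPM in Smad3-WT and 193 CPM in Smad3-KO, a ratio of 42.2 (15.4 to 144). BC100530 stood at 37.6 CPM and 793 CPM, a ratio of 21.1 (14.3 to 31.5). BC117090 had 0 and 46 UMIs, at least 162-fold higher against the floor of 3 UMIs. The plus-strand members again stayed within 2-fold, Gm5483 at 2950 CPM and 3626 CPM and Stfa2l1 at 636 CPM and 1209 CPM. The Stfa2l1 ratio there was 1.90 (1.56 to 2.30). Of the plus-strand array genes that are not members, Gm5416 stood at 20.1 CPM and 77.4 CPM. Stfa1 gave 57 UMIs from Smad3-WT and 1 from Smad3-KO, and 2010005H15Rik gave 126 and 0. Of the 6 members with at least 20 UMIs there, 3 passed 2-fold upward in Smad3-KO, beside 8.84% of all genes, and 1 passed it downward, beside 25%. That one was Cstb, at 1263 CPM in Smad3-WT and 338 CPM in Smad3-KO, a ratio of 0.268 (0.186 to 0.375).

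Among the 3 subclusters with over 100 Smad3-WT cells, Cstb was the stefin of high level that differed most. It ranged from 1263 CPM in subcluster 1 to 4072 CPM in subcluster 3, the group led by the heat shock gene Hspa1a and the heme oxygenase gene Hmox1, with 2056 CPM in subcluster 4. Stfa2l1 was nearly level over the same subclusters, at 636, 635 and 649 CPM, and Gm5483 ran from 2950 to 3696 CPM. Subcluster 5, of 45 cells, was lower in both, at 376 and 1805 CPM.

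Within Smad3-KO, the plus-strand pair was low in the cells with granule genes, whereas BC117090 was not. Gm5483 stood at 3626 CPM in subcluster 1, 2771 CPM in subcluster 2 and 698 CPM in the granule-gene subcluster 6, and Stfa2l1 at 1209, 1131 and 386 CPM. Subcluster 5, of 45 Smad3-KO cells, held Gm5483 at 816 CPM and Stfa2l1 at 325 CPM. BC117090 stood at 466 CPM in subcluster 6, close to its 445 CPM in subcluster 1, and at 253 CPM in subcluster 2. In subclusters 1, 2 and 6, Stfa2 stood at 193, 217 and 66.5 CPM, BC100530 at 793, 494 and 439 CPM and Stfa3 at 77.4, 23.4 and 39.9 CPM. Minus-strand members therefore made up 48.3% (42.6 to 53.9) of the array UMIs in subcluster 6, against 20.2% (19.1 to 21.4) in subcluster 2 and 23.8% (20.6 to 27.2) in subcluster 1. Cstb was lowest in subclusters 6 and 1, at 306 and 338 CPM, and highest among the larger ones in subcluster 2, at 1882 CPM.

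At the level of single cells, more members were found together in Smad3-KO neutrophils. With each cell thinned to 500 UMIs, at least 1 of the 6 array members was detected in 38.5% (36.2 to 40.7) of the 1840 Smad3-WT and 56.6% (53.6 to 59.6) of the 1084 Smad3-KO neutrophil-like cells. At least 3 were detected in 0.380% (0.153 to 0.782) and 10.8% (9.01 to 12.8). Since the plus-strand members are only a pair, a cell with at least 3 members must hold a minus-strand one. That contrast therefore follows largely from the minus-strand levels above and is no separate result. A minus-strand member was detected in 1.03% (0.623 to 1.61) and 20.9% (18.6 to 23.5). Among the 227 Smad3-KO cells with a minus-strand member, 81.5% also held a UMI of a plus-strand member, so most cells with a minus-strand stefin also carried a plus-strand one. In Smad3-WT the same held for 15 of 19 cells (78.9%). Before thinning, a plus-strand member was found in 43.4% of all Smad3-WT and 63.9% of all Smad3-KO neutrophil-like cells. These 2 shares are at another depth than the thinned ones and are not compared with them.

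**Figure D4:**
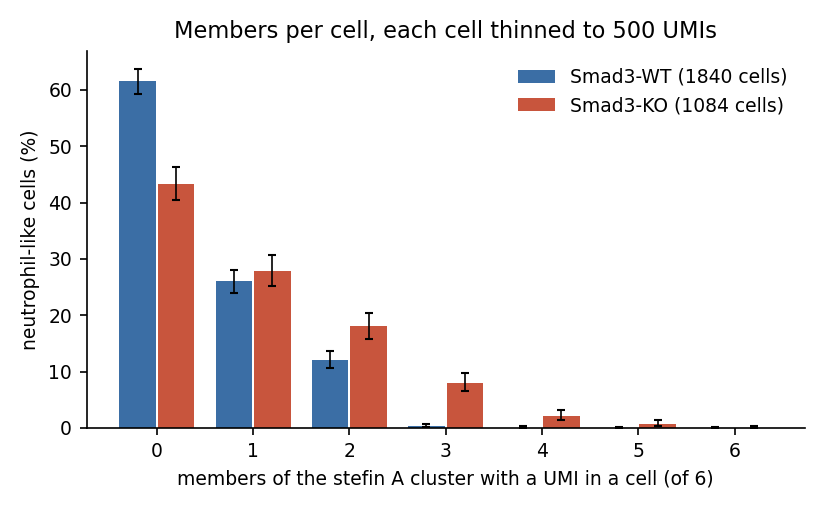
Percent of neutrophil-like cells (vertical axis) by the number of the 6 stefin A array members with a UMI in the cell (horizontal axis), after each cell was thinned to 500 UMIs, Smad3-WT in blue and Smad3-KO in red, bars from 0 with exact 95% counting intervals. Smad3-WT cells hardly pass 2 members, while 10.8% of Smad3-KO cells hold at least 3, which requires a minus-strand member.

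Array UMIs, counted before thinning, were concentrated in some cells. The 10% of cells with the most array UMIs held 59.7% of the array total of Smad3-WT and 43.5% of that of Smad3-KO, and the highest single cell had 66 and 43 array UMIs. For Cstb the same shares were 45.8% and 38.2%. These shares were not set to equal depth of the cells. In Smad3-WT, thinned to 500 UMIs, Gm5483 was found in 70.7% of cells with a Stfa2l1 UMI and in 25.6% of cells without one. In Smad3-KO these shares were 68.7% and 34.1%, so the plus-strand pair shared cells in both libraries. Cstb showed no such tie to Stfa2l1: it was found in 48.1% and 45.7% of Smad3-WT cells with and without Stfa2l1, and in 37.5% and 45% of Smad3-KO cells.

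The authors' own clusters, a grouping not made here, gave the same split between array stefins and stefin B. Their averages, in UMIs per cell after scaling to 1311 UMIs, pool both genotypes and carry no error. Gm5483 averaged 5.03 in cluster 1, 4.16 in cluster 4, 3.43 in cluster 3, 2.90 in cluster 6 and 1.37 in cluster 10, the 5 clusters with the highest S100a8 averages, and at most 0.486 in the other 8. Stfa2, BC100530 and BC117090 were each highest in cluster 3, at 0.287, 0.538 and 0.317, and Stfa2l1 was highest there too, at 1.45. Cstb averaged 2.82 in cluster 4, 2.79 in cluster 3, 2.5 in cluster 5 and 2.02 in cluster 1, and also 1.68 in cluster 7, where C1qa averaged 1.90.

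**Figure D5:**
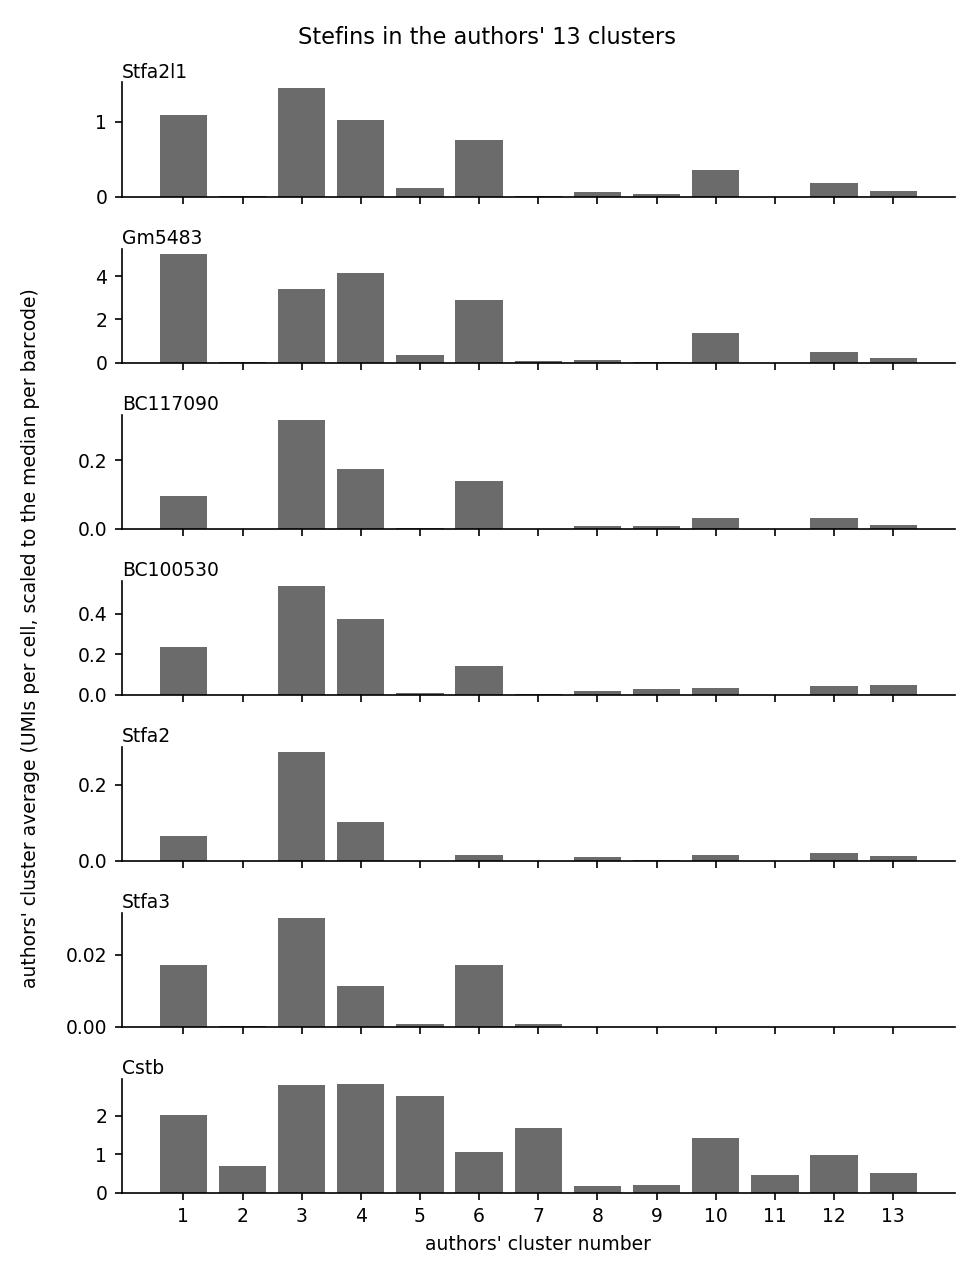
The authors' deposited average of each stefin (vertical axes, UMIs per cell scaled to 1311 UMIs, each from 0) in their 13 clusters (horizontal axis), with no error bars since the averages pool all cells of a cluster. Gm5483 is highest in cluster 1 and each other array member in cluster 3, and Cstb is also high in clusters 5 (2.5) and 7 (1.68).

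Across 14 groups of cells, made of each class by library with neutrophils split by subcluster and at least 50 cells each, the members were compared by the Pearson r of log2(CPM + 10). Stfa2, Stfa3, BC100530 and BC117090 correlated with each other at 0.865 to 0.939, Stfa2l1 with Gm5483 at 0.965, and Stfa2 with its near copy Stfa2l1 at 0.772. Gm5483 and BC117090 correlated at 0.404, and Cstb with BC117090 at -0.270. The groups share libraries and neutrophil content, so these r values are a description only. The genes most like the array sum among 7353 compared were Fpr1 (0.981), a formyl peptide receptor, Mxd1 (0.980), Il1f9 (0.980), Cxcl2 (0.978), a neutrophil chemokine, Grina (0.976), Arg2 (0.975), Trem1 (0.973), Hdc (0.973), the histamine-forming enzyme, Asprv1 (0.972) and Csf3r (0.971), the G-CSF receptor.

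The cysteine proteases listed as bound by stefins or other cystatins did not move as the minus-strand inhibitors did. Of 11 cysteine protease genes listed, 7 had at least 20 UMIs in neutrophil-like cells, with a median ratio of 1.66. On the CPM scale, 0 of these 7 were at least 2-fold higher in Smad3-KO, beside 7.58% of all genes, and 2 were lower, beside 18.4%. Lgmn, at a ratio of 1.96 (1.38 to 2.78), and Ctsb, at 1.91 (1.77 to 2.07), lay close to the upper mark. Ctsb, cathepsin B, stood at 640 CPM in Smad3-WT and 1224 CPM in Smad3-KO, Ctsz at 411 CPM and 718 CPM, and Ctss at 106 CPM and 176 CPM. The 2 lower ones were Ctsl, at 164 CPM and 76.2 CPM, and Ctsc, which activates the granule serine proteases, at 58.2 CPM and 25.7 CPM. Median-of-ratios scaling multiplies every ratio by the same factor. With it, Lgmn, Ctsb, Ctsz and Ctss pass the upper mark, and Ctsl and Ctsc no longer pass the lower one. The counts of proteases therefore hold on the CPM scale alone, and the share of all genes was not recounted on the other scale. Of 14 other cystatin genes, Cst3, the secreted cystatin C, alone had at least 20 UMIs there, at 802 CPM in Smad3-WT and 244 CPM in Smad3-KO, a ratio of 0.305 (0.269 to 0.345).

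Other neutrophil gene groups differed between the libraries in both directions on the CPM scale, beside the 7.58% of all genes at least 2-fold higher and the 18.4% lower. Of 8 granule genes, 7 had at least 20 UMIs in neutrophil-like cells and 5 of these were at least 2-fold higher in Smad3-KO, among them Lcn2, at 602 CPM in Smad3-WT and 8619 CPM in Smad3-KO, and Ngp, with 2 and 4843 UMIs. Of 7 activation genes, 4 were higher and 1 was lower, Il1a standing at 63.7 CPM and 703 CPM. Of 8 mature neutrophil genes 5 were lower, for example Il1r2 at 2322 CPM and 779 CPM, and of 5 interferon genes 0 passed 2-fold in either direction. Their part in the stefin result was not tested. Without the neutrophil-like cells that held 2 or more UMIs of Camp, Ngp and Ltf, the minus-strand ratio was 22.5.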

How the data were processed

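Per the labels and the study's methods, CD11b+Ly6G+ cells from 8 tumors per genotype were pooled into 1 library each and read with the 10x 5′ kit. The authors aligned the reads to mm10 with Cell Ranger and deposited raw UMI counts per gene and barcode. The authors also deposited averages per library as signal, counts scaled to the median UMIs per cell, and averages for their 13 clusters, with columns of their own fold changes and p-values that were not used. Barcode suffixes were matched to genotypes by recomputing the deposited library averages from the counts.

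The cell filter asked for 200 or more genes, over 500 but fewer than 20000 UMIs, and a mitochondrial share below 10%. With scanpy 1.11.5 and igraph, cells were clustered (2000 variable genes without stefins, 100 principal components, 15 neighbours, Louvain resolution 0.2). A cluster was named when at least 3 markers each reached 10% of its cells and a 2-fold level over the rest. Neutrophil-like cells were clustered again (30 components, resolution 0.5). No doublet caller was run, and cells with UMIs of other cell types were left out in an alternative. Levels are CPM of summed UMIs, which with 5′ tags do not depend on gene length, with exact Poisson intervals. Shares have exact Clopper-Pearson intervals, and ratios exact conditional binomial intervals. Genes were called at 2-fold with at least 20 UMIs. Thinned values drew 500 UMIs per cell. Named genes were the members, listed pathway genes, the 4 leading genes of each subcluster and the 10 most alike. The members and lists were chosen with earlier results of these data known.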

Additional observations from a re-analysis of the deposited data

Results flagged for a closer look

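Stefin UMIs were also present in barcodes that the cell filter removed and no comparison uses. The 596 Smad3-WT barcodes outside the filter (median 22697.5 UMIs) held the 6 array members at 32.1 CPM and Cstb at 398 CPM. The 81 Smad3-KO barcodes outside it (median 554 UMIs) held the array members at 622 CPM and Cstb at 548 CPM.

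The Smad3-KO over Smad3-WT ratio of the array sum lay on opposite sides of 1 in different neutrophil subclusters, at 1.75 (1.61 to 1.90) in subcluster 1, 0.508 (0.345 to 0.722) in subcluster 4, where Smad3-KO had 21 cells, and 0.703 (0.573 to 0.861) in subcluster 5. The difference between subclusters was not tested, since each value compares 1 library with 1 library.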

How the results depend on the processing

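No paired analysis was possible because each genotype has 1 library. The array ratio in all filtered cells, 2.63, was 4.86 with no filter on cells, 4.90 with at least 500 UMIs and at most 20% mitochondrial UMIs, 1.12 with each cell thinned to 500 UMIs, 1.12 as a mean over cells, 2.52 without mitochondrial and ribosomal protein genes and 2.75 without barcode sequences found in both libraries. In neutrophil-like cells the array ratio, 1.19, was 1.24 with no filter, 1.29 thinned, 1.29 as a mean over cells, 1.51 under median-of-ratios scaling, 1.29 without Camp, Ngp and Ltf cells and 1.63 in cluster 1. The Cstb ratio, 0.840, was 0.971 thinned, 0.981 as a mean over cells, 0.930 without those cells and 0.635 in cluster 1, and it turned to 1.07 under median-of-ratios scaling. The minus-strand ratio, 21.9, was 36.3 in cluster 1. The plus-strand ratio, 0.935, was 0.978 with no filter, and turned to 1.03 thinned, 1.01 as a mean over cells, 1.19 under median-of-ratios scaling, 1.03 without Camp, Ngp and Ltf cells and 1.22 in cluster 1. The highest over the lowest array level was taken among subclusters with at least 50 cells of a library. At resolution 1.0 it went from 1.20 to 2.15 in Smad3-WT and from 3.03 to 7.74 in Smad3-KO. Subcluster 5 of the main resolution, with 45 cells of each library, was left out, at 2190 CPM in Smad3-WT and 1540 CPM in Smad3-KO. The cause of the changes under the alternatives was not tested. The share of all genes at least 2-fold higher in Smad3-KO neutrophil-like cells, 7.58%, was 7.77% with at least 50 UMIs per gene and 18.8% with at least 1. The alternatives without shared barcodes, without subcluster 5 and in cluster 1, and all those of the strand groups, were chosen after seeing the data. With 1 library per genotype, intervals cover counting error only and the spread between mice is unknown.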
